A study of Homo sapiens with 6 samples.

Results

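The 6 genes described here code for granulocyte and macrophage products (AZU1, PLAC8, MGAM and MMP12), a myeloid transcription factor (CEBPD) and a receptor induced by retinoic acid (GPRC5A). The genes were selected on these tables, and their regions were found by the nearest gene that the deposited tables give for each region, and they account for 7 of the 591 regions in both tables, 5 of 323 in DMSO and 2 of 268 in ATRA. All 6 had at least 1 region. The tables hold only regions whose p, not adjusted, was under 0.005 when the authors compared knockdown with control, so that comparison chose these regions and is described below with no test. Among the 7, the authors' deposited table gives the p nearest that limit for MGAM (0.00470) and the smallest for MMP12 (0.000695). Regions just outside the limit were not analysed here.

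ATAC-seq uses the transposase Tn5, which cuts DNA where chromatin is open and tags it for sequencing, so that reads mark accessible DNA. The cells were NB4, an established human acute promyelocytic leukaemia line that carries the PML-RARA fusion and matures into granulocyte-like cells when given all-trans retinoic acid (ATRA). All 6 libraries came from this 1 line, at 50000 cells each: a control, shRNA1 and shRNA2 in DMSO, the solvent, and the same in 1 µM ATRA. Both short hairpin RNAs target SMARCD2, which belongs to the nucleosome remodelling complexes known as BAF or SWI/SNF. The labels call the DMSO cells undifferentiated and the ATRA cells differentiated, and do not say how long treatment lasted. The control is tagged scr in its column names and description, and the labels do not spell out what its cells carry. The hairpins are the only replicates of the knockdown, each treatment has 1 control library, and the labels do not tell whether cultures were separate. All regions of a treatment share that control, so how far control cultures vary is unknown. SMARCD2 had 0 listed regions, and tables of differing regions do not show whether markers of the cell line are open, so neither the knockdown nor the cell identity was checked here. In bulk libraries, more cells with an open region and a more open region in each cell cannot be told apart.

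Neutrophil granules form in sequence as myeloid cells mature. Azurophil granules fill at the promyelocyte stage with antimicrobial proteins and serine proteases, and specific and gelatinase granules and secretory vesicles follow. SMARCD2 is known to be needed for the formation of granules in human neutrophils, where it acts with the transcription factor CEBPE, and CEBPD belongs to the same C/EBP family. Retinoic acid acts through receptors that bind DNA as RAR and RXR dimers, and PML-RARA blocks this programme in promyelocytic leukaemia.

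Reads were scaled to effective library sizes of 13747000 (shRNA1), 14718000 (shRNA2) and 11497000 (control) in DMSO, and of 17632000, 17268000 and 14373000 in ATRA, which were recovered from the deposited fold changes and mean abundances. This is called the fold change scale. The authors' normalized counts imply another scale, on which a log2 ratio of knockdown to control is smaller by 0.18 in DMSO and by 1.00 in ATRA, so both scales are given where they differ by much. Intervals on ratios are exact 95% intervals (Clopper-Pearson) and cover counting error only.

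In DMSO, 4 of the 5 regions (AZU1, PLAC8, MGAM and GPRC5A) held more reads with both hairpins than in the control, and 1 (MMP12) held fewer. Of all 323 listed regions in DMSO, 65.9% were higher and 34.1% lower. In ATRA both regions (GPRC5A and CEBPD) were higher, against 79.1% of all 268 listed regions, or 69.0% on the normalized count scale. The median ratio of knockdown to control was 4.52 over the 5 DMSO regions and 2.56 over all listed DMSO regions. It was 3.02 over both ATRA regions and 2.75 over all listed ATRA regions. Throughout, a region with 0 control reads was set at its ratio against 3 control reads, called its lower bound. Regions with 1 or 2 control reads kept them, so the controls of AZU1 (0.0870 CPM) and MGAM (0.174 CPM) lie below that floor (0.261 CPM). Such ratios and lower bounds are on unlike footings and cannot be ranked against each other. Lower bounds made up 1 of the 5 DMSO regions and both ATRA regions, against 34.7% and 37.7% of all listed regions, so the medians show no excess. On the normalized count scale these medians were 3.99 and 2.25 in DMSO, and 1.5 and 1.37 in ATRA. The tables do not settle which scale is right. All these medians over listed regions include the lower regions. The authors' log2 fold changes had medians of 2.80 (DMSO) and 6.39 (ATRA) over these genes, and 2.39 and 2.35 over all listed regions. Over the higher listed regions alone the medians were 6.09 and 3.60. In DMSO GPRC5A (6.17) lay above that median, and AZU1 (3.69), MGAM (2.80) and PLAC8 (2.15) lay below it. In ATRA GPRC5A (6.45) and CEBPD (6.32) lay above. For regions with 0 control reads the log2 fold change depends on the prior count of the fit.

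**Figure D1:**
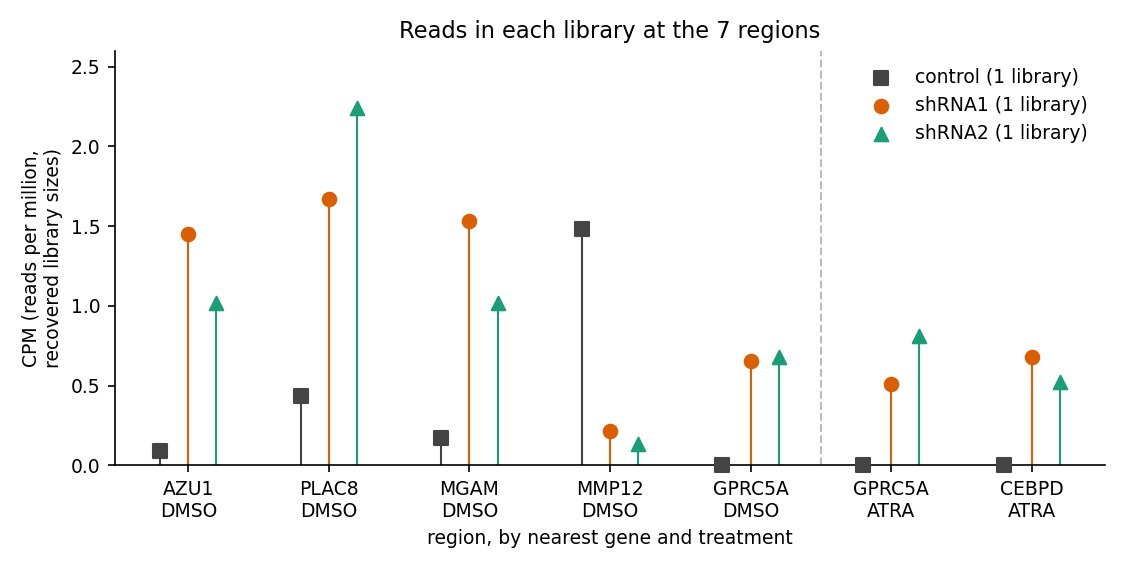
ATAC-seq CPM (y axis, fold change scale) in each library at the 7 regions (x axis, by gene and treatment), with squares for the control, circles for shRNA1 and triangles for shRNA2, 1 library each. Both hairpins lie above the control at 6 regions, and at MMP12 the control, at 1.48 CPM, lies above both.

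The azurophil granule genes come first. AZU1 codes for azurocidin, an antimicrobial and monocyte-attracting protein of azurophil granules. On chromosome 19 it lies between PLPPR3 and PRTN3, the latter being the proteinase 3 gene of the same granules (order from RefSeq, GRCh38.p14). The AZU1 region (chromosome 19, 823782 to 823922, GRCh37.p13, 141 bp) lay 3908 bp outside the gene. It held 20 reads with shRNA1, 15 with shRNA2 and 1 in the control, or 1.45, 1.02 and 0.0870 CPM (reads per 1000000 reads of library size). Both hairpins were thus far above a control that rests on a single read, and the ratio of knockdown to control was 14.1 (95% interval 2.38 to 574).

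PLAC8 codes for a small cysteine-rich protein of myeloid cells and is counted here with the azurophil granule genes. Its region lay inside the gene (chromosome 4, 84031634 to 84031807, 174 bp) and was the best covered of the 7, with 23, 33 and 5 reads for shRNA1, shRNA2 and control. These are 1.67, 2.24 and 0.435 CPM, and the ratio of knockdown to control was 4.52 (1.83 to 14.5). The interval is the narrowest of those with a control read among the higher regions, and shRNA2 was the higher hairpin, by 1.34 times (0.763 to 2.39). At AZU1 shRNA1 was the higher, by 1.43 times (0.695 to 3.0), so neither hairpin was above the other beyond counting error.

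The 250 bases before the start of AZU1 and before both starts of PLAC8 in RefSeq (GRCh38.p14) are shown for the azurophil granule genes. Each of these genes had a region that was more accessible in the knockdown. Each window is read 5′ to 3′ on the gene's strand, with capitals for matches to any of 6 motifs searched on both strands. The C/EBP motif was searched as TTGCNNAA. The core bound by ETS factors such as PU.1 was searched as AGGAAG. For RUNX factors the letters were TGTGGT. For the receptors of retinoic acid they were those of the single site, AGGTCA. Jun and Fos dimers (AP-1) were given by TGANTCA. Factors of the GATA family were given by AGATAA. The windows are chr19:827587-827836 on the plus strand for AZU1, and chr4:83114730-83114979 and chr4:83109890-83110139 on the minus strand for PLAC8.
AZU1: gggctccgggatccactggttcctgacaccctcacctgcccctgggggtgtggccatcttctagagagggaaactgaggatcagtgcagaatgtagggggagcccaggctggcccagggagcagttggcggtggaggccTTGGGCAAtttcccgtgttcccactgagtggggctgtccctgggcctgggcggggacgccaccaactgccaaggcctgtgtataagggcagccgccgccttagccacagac
PLAC8 first start: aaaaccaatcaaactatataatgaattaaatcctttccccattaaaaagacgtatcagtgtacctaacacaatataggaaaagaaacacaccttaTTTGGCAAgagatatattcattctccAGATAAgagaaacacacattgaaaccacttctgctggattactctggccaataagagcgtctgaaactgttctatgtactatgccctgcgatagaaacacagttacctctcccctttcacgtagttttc
PLAC8 second start: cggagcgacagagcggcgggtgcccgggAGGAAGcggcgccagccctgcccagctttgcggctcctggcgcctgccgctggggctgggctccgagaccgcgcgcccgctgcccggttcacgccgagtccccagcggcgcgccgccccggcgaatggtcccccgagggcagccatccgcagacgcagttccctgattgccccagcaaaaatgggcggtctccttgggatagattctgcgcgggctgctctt
The AZU1 window held 1 match to the C/EBP motif, 111 to 104 bases before the start. The first PLAC8 window held the C/EBP motif at 155 to 148 bases and the GATA motif at 129 to 124 bases before the start, and the second held the ETS core at 222 to 217 bases. Of all 35116 windows of this length in RefSeq, 9.05% held the C/EBP motif, 9.17% the GATA motif and 28.7% the ETS core. RUNX, the retinoic acid receptor site and AP-1 had no match in these windows, and 11.0%, 12.1% and 6.57% of all windows hold them. RefSeq windows were at hand for 3 of the 6 genes. That of MGAM, whose region was also higher in the knockdown, held none of the 6 motifs and is not shown. The windows and the measured regions are on different genome builds and were not placed against each other, so the matches describe the promoters and not the regions.

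MGAM codes for maltase-glucoamylase, a digestive enzyme of the intestinal brush border that is also found in neutrophil granules. Its region lay inside the gene (chromosome 7, 141804455 to 141804600, 146 bp) and held 21 reads with shRNA1, 15 with shRNA2 and 2 in the control. The knockdown libraries, at 1.53 and 1.02 CPM, were both above the control at 0.174, with a ratio of 7.27 (1.87 to 62.3). The upper limit is wide because the control had 2 reads. As at AZU1, shRNA1 was the higher hairpin, by 1.5 times (0.737 to 3.13), within counting error.

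MMP12 codes for macrophage elastase, a matrix metalloproteinase that degrades elastin, and sits between MMP3 and MMP13 in the metalloproteinase cluster of chromosome 11 (order from RefSeq). Its region (chromosome 11, 102725819 to 102725893, 75 bp) lay 7570 bp from the gene, the farthest of the 7. It held 3 reads with shRNA1, 2 with shRNA2 and 17 in the control, or 0.218, 0.136 and 1.48 CPM. MMP12 was the only one of the 6 genes with fewer reads in both knockdown libraries, at 8.42-fold lower (2.98 to 29.2) on the fold change scale and 9.56-fold (3.38 to 33.1) on the normalized count scale. Per 100 bp of region, the control had 1.97 CPM here and at most 0.25 at the other 4 DMSO regions. All were listed for a difference between knockdown and control, so this contrast follows from the direction of each region. It is not particular to MMP12, as the listed DMSO regions of SCMH1, P2RX4 and GRIP1 held 14, 16 and 15 control reads.

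CEBPD codes for C/EBP-delta, a bZIP transcription factor of myeloid maturation and inflammation, from a gene without introns. Its region was listed in ATRA and lay inside the gene (chromosome 8, 48650006 to 48650097, 92 bp), so it is exonic. It held 12 reads with shRNA1, 9 with shRNA2 and 0 in the control, or 0.681 and 0.521 CPM against a limit of 0.209 that a count of 0 allows (3 reads). The knockdown was 2.88-fold higher against that floor, a value that leaves out counting error in the knockdown reads. The exact interval, which includes that error, has a lower limit of 2.14. On the normalized count scale the ratio and the lower limit are 1.44 and 1.07, so in ATRA the size of the difference rests on the scale. With 0 control reads the knockdown is higher on any scale, so the direction could not differ.

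GPRC5A codes for an orphan G protein-coupled receptor first described as a gene induced by retinoic acid and best known from lung epithelium. It was the only one of the 6 genes listed in both treatments, at places 253 bp apart with no shared base. The DMSO region (chromosome 12, 13043763 to 13043837, 75 bp) lay outside the gene by 118 bp. The ATRA region (chromosome 12, 13044091 to 13044277, 187 bp) lay inside it, beginning about 135 bp past the gene's edge, and the gene is on the plus strand, so the regions lie on either side of the start that the authors' annotation used.

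In DMSO the GPRC5A region held 9 reads with shRNA1, 10 with shRNA2 and 0 in the control, or 0.655 and 0.679 CPM against a limit of 0.261 for the control. The hairpins were nearly equal there (shRNA2 over shRNA1 1.04, interval 0.379 to 2.89). The knockdown was 2.56-fold higher against 3 control reads (exact lower limit 1.88). In ATRA the GPRC5A region held 9, 14 and 0 reads, or 0.510 and 0.811 CPM against a limit of 0.209. The knockdown was 3.16-fold higher against 3 control reads (exact lower limit 2.37), or 1.57-fold (exact lower limit 1.18) on the normalized count scale. The bounds of both treatments come from different places and different controls, so no difference between DMSO and ATRA was tested. No other listed region of either table lay within 100 kb of any of the 7 regions.

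**Figure D2:**
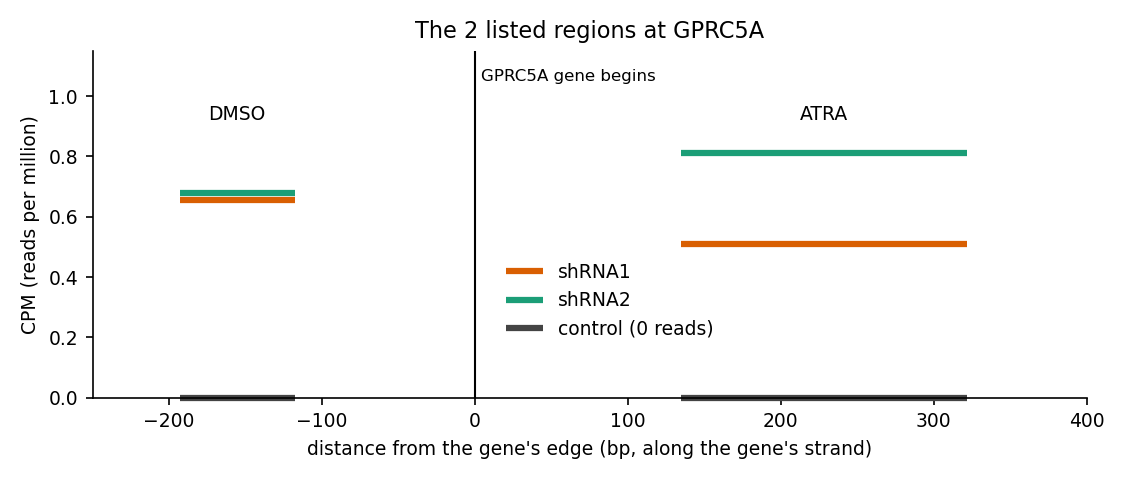
CPM (y axis, fold change scale) over the extent of both GPRC5A regions (x axis, bp from the gene's edge along its strand), with 1 bar for each hairpin and 1 for the control. The DMSO region ends 118 bp before the gene and the ATRA region begins 135 bp inside it, and both controls are at 0.

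**Figure D3:**
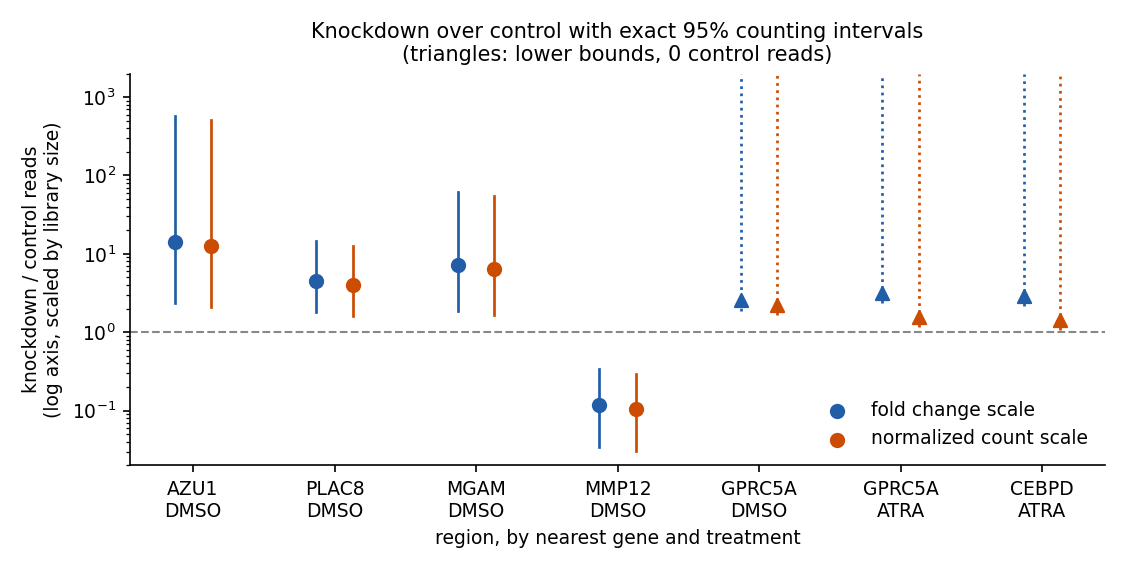
Ratio of knockdown to control reads (y axis, log scale) at the 7 regions (x axis), on the fold change scale in blue and the normalized count scale in orange, with exact 95% counting intervals. Triangles with dotted lines are lower bounds for regions with 0 control reads, and the bounds of both ATRA regions shrink to 1.57 and 1.44 on the normalized count scale. Circles use the control reads as counted, so circles and triangles cannot be ranked against each other.

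No difference between the hairpins was larger than counting error at the 7 regions, since every interval of shRNA1 over shRNA2 held 1. The hairpin ratio ranged from 0.630 at GPRC5A in ATRA to 1.61 at MMP12, where it rests on 5 reads. In the authors' normalized counts the knockdown held 15.0 ± 3.75 (SD, n = 2) against 1.20 in the control at AZU1, and 15.5 ± 4.38 (SD, n = 2) against 2.40 at MGAM. At MMP12 it held 2.15 ± 0.707 (SD, n = 2) against 20.4. At GPRC5A it held 8.11 ± 0.212 in DMSO and 8.56 ± 2.03 in ATRA, and at CEBPD 7.97 ± 2.18 (SD, n = 2 each), all against 0. Each of these gaps between knockdown and control was larger than the spread between the hairpins. A region with unlike hairpins or a small gap is less likely to pass the authors' p. Both the likeness of the hairpins and the size of the gaps are thus partly set by how the regions were listed. Taken singly against the control, shRNA1 gave ratios of 16.7 (AZU1), 3.85 (PLAC8), 8.78 (MGAM) and 0.148 (MMP12), and shRNA2 gave 11.7, 5.16, 5.86 and 0.0919.

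The regions were sparsely covered. They held 19 to 61 reads over the 3 libraries of a treatment, where the median listed region held 37 in DMSO and 33 in ATRA. By the authors' mean abundance PLAC8 ranked 108 of 323 and GPRC5A 289 of 323 in DMSO, and GPRC5A ranked 190 and CEBPD 221 of 268 in ATRA. In width, the regions near MMP12 and GPRC5A in DMSO had the smallest value of the tables, 75 bp, as did 8.98% of listed DMSO regions, and the median listed region was 141 bp wide in DMSO and 149 bp in ATRA. Of the 7 regions 3 had 0 control reads, 1 in DMSO and 2 in ATRA, against 34.7% and 37.7% of all listed regions, and every listed region with 0 control reads is by construction higher. Inside genes lay 2 of the 5 DMSO regions and both ATRA regions, against 77.1% and 81.3% of all listed regions.

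**Figure D4:**
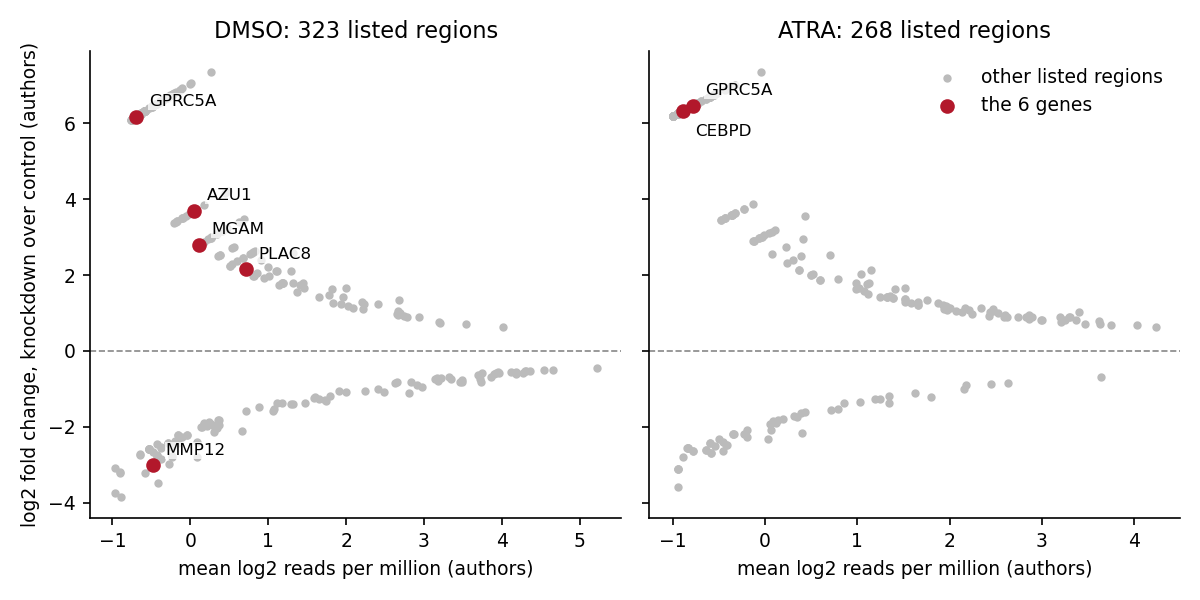
The authors' log2 fold change of knockdown over control (y axis) against their mean log2 CPM (x axis) for every listed region, in DMSO on the left and ATRA on the right, with the 6 genes in red. The empty band around 0 comes from the selection by p, and all 7 regions of the 6 genes lie at a mean of 0.71 (PLAC8) or lower.

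For each region, the listed regions of other genes in the same treatment with the most similar reads in the 3 libraries were found. Likeness was the Euclidean distance of log2 scaled reads with 0.5 reads added. Nearest to AZU1 were NSFL1C (18, 16 and 1 reads for shRNA1, shRNA2 and control), ASIC1 and RYR1, and nearest to PLAC8 were RASD2 (22, 33 and 5), CD320 and TSC22D3. Nearest to MGAM were EFNA5 (22, 14 and 2) and BTBD9, and nearest to MMP12 were SCMH1 (3, 2 and 14), P2RX4 and GRIP1. PLSCR3 and ZNF595 had the same reads as GPRC5A in DMSO (9, 10 and 0), followed by TROAP. In ATRA NDUFAF2 (9, 15 and 0), VASH1 and FLVCR1 were nearest to GPRC5A, and TSPAN8 (11, 9 and 0), BCL7A and CFDP1 to CEBPD. With so few reads, many regions take nearly the same values, and the likeness covers 3 libraries only.

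Related genes were counted in 7 lists of 200 genes, which were drawn up with the 6 genes known to be listed. The matrix metalloproteinase list (27 genes) and the retinoic acid inducible list (37) are defined by a protein family and an inducer. The shares are thus not those of myeloid genes alone. Of these 200, 8 (4.0%) had a listed region in DMSO and 2 (1.0%) in ATRA, against 1.58% and 1.3% of 20052 protein-coding genes in RefSeq. In either table it was 9 genes (4.5%, against 2.82%), and 3 of the 9 are not among the 6 genes. Since the 6 genes were selected on these tables, these shares cannot show an excess of myeloid genes. At such shares a list of 20 to 37 genes holds about 1 listed gene or none, so the counts per list below describe the lists and show no excess or lack. Of 30 azurophil granule genes 2 were listed, AZU1 and PLAC8, both in DMSO, and ELANE, PRTN3, MPO and CTSG were not. The specific granule list had 0 of 24 in both treatments, and the gelatinase and secretory granule list 1 of 22, MGAM. In the list of myeloid transcription factors CEBPD was the 1 gene of 35, and in the retinoic acid list GPRC5A was the 1 gene of 37. A gene with no listed region may have accessible regions that did not pass the authors' p or lie more than 10 kb away.

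The metalloproteinase list had 2 of 27 genes in DMSO, both lower, where 34.1% of all listed DMSO regions were lower. Besides MMP12 this was TIMP1, which codes for a secreted inhibitor of metalloproteinases. The region in TIMP1 (chromosome X, 47441548 to 47442009, 462 bp) held 53 and 61 reads with shRNA1 and shRNA2 and 98 in the control, so it was far better covered than that of MMP12. It was 2.13-fold lower (1.61 to 2.81), or 2.42-fold on the normalized count scale.

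The monocyte and macrophage list had 2 of 29 genes in DMSO, both higher, as were 65.9% of all listed DMSO regions. MERTK, a receptor tyrosine kinase for the uptake of dying cells, had 25, 12 and 2 reads for shRNA1, shRNA2 and control and a ratio of 7.47 (1.93 to 64.0). CIITA, which switches on MHC class II genes, had 29, 21 and 1 reads. Of the genes of other lineages, 2 of 20 erythroid genes (TFRC and CA2) were listed in ATRA, and of 24 lymphoid genes CD5 was listed in DMSO and CD247, with a higher and a lower region, in ATRA. Their part in the results above was not tested.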

How the data were processed

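Accessibility of regions was measured by ATAC-seq in 6 NB4 libraries, grouped by title (the DMSO control's description names ATRA, and title and column name were followed instead). The submitters' processing notes name edgeR, MACS2, Picard 2.5.0, STAR and bcl2fastq, and the build GRCh37.p13. The role of each tool, the Tn5 offset and the handling of duplicate reads are points not given in the sources used here. Per the file headers, the authors deposited raw read counts per region and library, used as they stand. The authors also deposited a normalized signal, which is the raw count times 1 factor per library. The authors' log2 fold change, mean log2 CPM, F score and unadjusted p-value were copied as deposited. No deposited p-value exceeds 0.00499, and no distance to a gene exceeds 9992 bp.

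Effective library sizes were fitted by least squares to the authors' fold changes and mean abundances with edgeR 4.0.16 in R 4.3.3, with largest deviations of 0.00657 and 0.00174 in log2 fold change (DMSO and ATRA), and the step was tested on simulated data. Ratios, intervals, likeness and motif matches were computed in Python 3.11.15 with scipy 1.17.1. Where the control had 0 reads, ratios are set against 3 reads in that library and called lower bounds. They leave out counting error in the knockdown reads, which the exact lower limits include. The strand column matched the nearest gene's strand in 460 of 461 regions with a RefSeq window. The text names the 6 genes, every list gene with a listed region, and the 3 regions most like each, of which 1 is not reported here. The members and lists were chosen with earlier results of these data known. Alternatives were another scale, a count filter, leaving out each hairpin, another floor and added reads.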

Additional observations from a re-analysis of the deposited data

How the results depend on the processing

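The counts of higher regions, 4 of 5 in DMSO and 2 of 2 in ATRA, were the same on the normalized count scale, with median-of-ratios size factors and without either hairpin. Both ATRA regions had 0 control reads, so the ATRA count was fixed in advance. Requiring 20 reads over the 3 libraries removed GPRC5A in DMSO and left 3 higher. Of 44 single ratios recomputed, 0 changed direction, which was fixed in advance at the 3 regions with 0 control reads. At the remaining DMSO regions a change was hardly possible. They were listed for a difference between knockdown and control, and the 2 DMSO scales differ by a factor of 1.14, against ratios of 0.119 and of 4.52 or more. The unchanged counts and directions are therefore no test of the direction. Leaving out a hairpin (14 ratios) cannot move a ratio by more than the spread between hairpins (1 SD), and the count filter (6) does not move it at all. Of the other 24 ratios, 11 moved by less than that spread and 13 by more. Leaving out 1 hairpin moved a ratio by at most 1.29 times (MMP12, 14 values). The 1 control library of each treatment cannot be left out, and every ratio rests on it. Median-of-ratios factors gave 1.57 for GPRC5A and 1.44 for CEBPD in ATRA. These factors come from listed regions with reads in all 3 libraries. Such regions were selected for differing between knockdown and control, so the factors cannot settle which scale is right. Adding 0.5 reads to each side lowered AZU1 from 14.1 to 9.56, and raised GPRC5A to 15.8 (DMSO) and 19.4 (ATRA) and CEBPD to 17.7, since these 3 regions had 0 control reads. A floor of 1 control read gave 7.67, 9.47 and 8.65 for them. No paired analysis was possible because each treatment has 1 control library, so knockdown and control share fewer than 2 replicate numbers. Depth limits all 7 regions: a control count of 0 allows up to 0.261 CPM in DMSO and 0.209 in ATRA.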
